A study of Mus musculus with 42 samples.

Results

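Cyp2b10, Cyp2b9 and Cyp2b13 are the 3 mouse genes of the Cyp2b family that the Steroltalk cDNA array measures, out of 277 mouse genes in all. They were picked by name: each has 1 mouse probe (ST_Mm_038 for Cyp2b10, ST_Mm_041 for Cyp2b9 and ST_Mm_039 for Cyp2b13), printed in 3 spots, and all 3 passed the background limit on every array used. Liver RNA of single female C57BL/6 mice was labelled with Cy3 and hybridized beside a Cy5-labelled reference pool of liver RNA. All mice received 1 intraperitoneal injection and were killed 24 h later.

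On reference pool 1, a mix of all samples, 6 mice on standard diet received corn oil (vehicle) and 6 received TCPOBOP at 3 mg/kg, all 19 weeks old. On the diet with 1% cholesterol, fed for 1 week, the groups were vehicle (19 weeks old, 5 arrays with scanner values of 6 labelled samples), TCPOBOP (3 mg/kg, 18 weeks old, 6 mice) and PCN (40 mg/kg, 16 weeks old, 6 mice). Reference pool 3, a mix of standard diet samples only, was used for a further set on standard diet, vehicle (19 weeks old, 5 arrays used of 6 labelled samples) and PCN (40 mg/kg, 18 to 19 weeks old, 6 mice). On cholesterol diet the treated mice were younger than the vehicle mice, and the PCN mice younger than the TCPOBOP mice, so age and treatment cannot be told apart there. Among TCPOBOP mice those on cholesterol diet were younger, so age and diet cannot be told apart either, which also bears on the interaction. The labels number the samples of a group as separate mice, and RNA of each was labelled on its own.

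The cytochromes P450 of the Cyp2b family are enzymes of the endoplasmic reticulum that oxidize drugs, steroids and other lipophilic compounds, and in rodent liver they are the classical targets of phenobarbital-type inducers. The constitutive androstane receptor (CAR, gene Nr1i3) pairs with the retinoid X receptor and binds an enhancer upstream of Cyp2b10, so that Cyp2b10 message is widely used as a readout of CAR activity. TCPOBOP is a ligand of mouse CAR, whereas PCN is a ligand of the mouse pregnane X receptor (PXR, gene Nr1i2), whose best known targets are the Cyp3a genes. Cyp2b9 and Cyp2b13 are close paralogs of Cyp2b10 and are expressed mainly in female liver.

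The start regions of the genes are shown because they tell how near to each other the members are. All 3 members matched RefSeq windows (build GRCm38.p6, plus strand of chromosome 7), each from 250 bases before the start of the gene to 50 bases after it, at chr7:25897408-25897707 for Cyp2b10, chr7:26173159-26173458 for Cyp2b9 and chr7:26061245-26061544 for Cyp2b13. They read 5′ to 3′, with capitals for the letters AGGTCA, the core that many nuclear receptors bind.
Cyp2b10: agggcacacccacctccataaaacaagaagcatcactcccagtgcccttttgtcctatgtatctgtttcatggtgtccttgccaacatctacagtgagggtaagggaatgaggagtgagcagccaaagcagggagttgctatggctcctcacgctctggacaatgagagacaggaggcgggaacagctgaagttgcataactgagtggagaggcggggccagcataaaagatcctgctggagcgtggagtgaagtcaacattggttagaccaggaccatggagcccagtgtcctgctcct
Cyp2b9: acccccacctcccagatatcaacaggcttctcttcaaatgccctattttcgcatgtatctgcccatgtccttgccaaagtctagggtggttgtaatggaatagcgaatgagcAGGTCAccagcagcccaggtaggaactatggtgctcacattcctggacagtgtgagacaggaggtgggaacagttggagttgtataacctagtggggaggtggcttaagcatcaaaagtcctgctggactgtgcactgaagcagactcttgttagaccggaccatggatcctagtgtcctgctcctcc
Cyp2b13: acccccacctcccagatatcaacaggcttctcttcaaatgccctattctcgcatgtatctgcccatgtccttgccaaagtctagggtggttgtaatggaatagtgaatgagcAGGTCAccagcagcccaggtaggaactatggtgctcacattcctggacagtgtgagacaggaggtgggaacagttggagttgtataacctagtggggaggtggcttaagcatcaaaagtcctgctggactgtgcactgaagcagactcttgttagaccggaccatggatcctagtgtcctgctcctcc
The windows of Cyp2b9 and Cyp2b13 were identical at 298 of 300 positions (99.3%) and differed by T48C and C104T, counted from the first base of the window with the base of Cyp2b9 first. In a global alignment, the Cyp2b10 window matched the other two at 230 of 314 columns (73.2%), of which 28 were gaps. AGGTCA occurred once in the windows of Cyp2b9 and Cyp2b13, at bases 113 to 118 on the plus strand, and on neither strand of the Cyp2b10 window. It occurs on either strand in 16.3% of all 32851 RefSeq windows of this length. The variant AGTTCA (in 14% of all windows), TATAAA (13.6%) and direct repeats of AGGTCA or AGTTCA with 4 bases between (0.0274%) were found in none of the 3 members. The CAR enhancer of Cyp2b10 lies outside these windows.

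The signals of all 3 Cyp2b probes rose with TCPOBOP on standard diet, and no other gene on the array had as high an estimate. Probes of such close paralogs may bind each other's messages, so a rise given for a gene is that of its probe. Whether each message rose on its own was not tested. The measure throughout was the log2 ratio of a liver to its reference pool, which is 0 where both hold as much of a message. For Cyp2b10 the 6 vehicle mice ran from -1.75 to -1.42 with a median of -1.51, and the 6 TCPOBOP mice from 1.28 to 1.71 with a median of 1.39. All TCPOBOP mice lay far above all vehicle mice, with a gap between the groups many times wider than either group. The log2 fold change was 2.98 (SE 0.15, 95% confidence interval 2.67 to 3.30, limma adjusted p = 1.1e-12), or 7.90-fold. This is the fold on the array. By RT-PCR, another measure of message, the paper reports a far larger rise of Cyp2b10 with TCPOBOP on both diets. The reason for the gap was not tested. The paper's mean RT-PCR rise was larger on standard than on cholesterol diet, and it gives no test of that difference.

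Cyp2b13 ran from -1.47 to -1.13 with vehicle (median -1.33) and from 1.26 to 1.73 with TCPOBOP (median 1.42). Cyp2b9 lay between -1.15 and -0.61 with vehicle (median -0.90) and between 1.15 and 1.51 with TCPOBOP (median 1.27). Neither gene had any overlap between the groups. The rise was 6.76-fold for Cyp2b13 (log2 2.76, SE 0.18, limma adjusted p = 3.62e-11) and 4.59-fold for Cyp2b9 (log2 2.20, SE 0.15, limma adjusted p = 1.25e-10). All 3 of 3 members were called higher, against 22% of the 277 genes called higher (and 21.3% lower) in this comparison, and the groups did not overlap, with TCPOBOP higher, for 14.4% of all genes. They ranked 1, 2 and 3 of 277 by log2 fold change. The next gene was Apoa4 (apolipoprotein A-IV), at 2.11. In bulk liver RNA, a change in the share of cells that express a gene and a change in RNA per cell cannot be told apart.

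**Figure D1:**
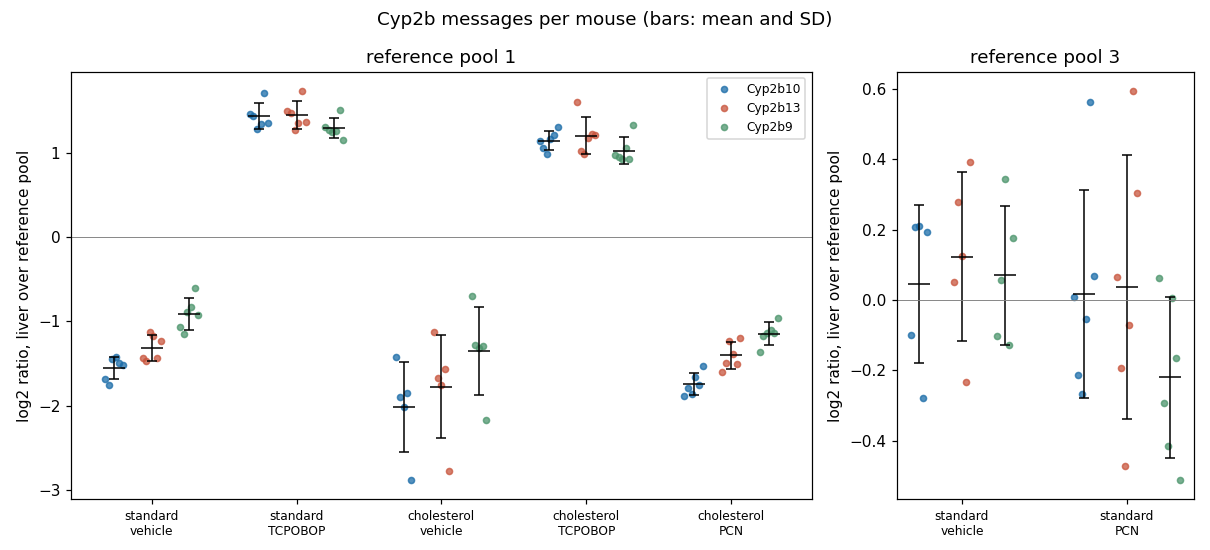
Log2 ratio, liver over reference, of Cyp2b10, Cyp2b13 and Cyp2b9 in each mouse, by diet and treatment, on reference pool 1 (left) and reference pool 3 (right, with its own axis). Points are mice and bars the mean and SD; TCPOBOP mice lie above 0 and all other pool 1 mice below it, while on pool 3 vehicle and PCN overlap around 0.

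On the array the response was of the same order on the cholesterol diet, unlike the mean RT-PCR rises of Cyp2b10 in the paper. The log2 ratios of Cyp2b10 in the 5 vehicle mice were -1.42, -1.90, -2.01, -1.84 and -2.88 (replicates 1, 3, 4, 5 and 6), and the 6 TCPOBOP mice ran from 0.99 to 1.30 with a median of 1.15. Replicate 6 was the lowest vehicle mouse and replicate 1 the highest, and no TCPOBOP mouse came near either. The rise of Cyp2b10 was 8.91-fold (log2 3.15, SE 0.16, 95% confidence interval 2.83 to 3.48, limma adjusted p = 9.25e-13).

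Vehicle mice on cholesterol diet had Cyp2b13 log2 ratios of -1.12, -1.67, -1.75, -1.56 and -2.78 in the same replicate order, and the TCPOBOP mice ran from 0.98 to 1.61 (median 1.19). Cyp2b9 was at -0.70, -1.28, -1.32, -1.29 and -2.17 with vehicle and between 0.92 and 1.33 with TCPOBOP (median 0.96). The same mice were thus highest and lowest for all 3 messages with vehicle, and the groups stayed apart. Cyp2b13 rose 7.88-fold (log2 2.98, SE 0.19, limma adjusted p = 2.71e-11) and Cyp2b9 5.19-fold (log2 2.37, SE 0.16, limma adjusted p = 9.73e-11). Again 3 of 3 members were called higher, against 23.1% of all genes called higher and 14.4% lower. All 3 did so without overlap, as did 10.8% of all genes, and they ranked 1, 2 and 3 of 277. Next came Alas1, whose enzyme sets the pace of heme synthesis, at 2.08.

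**Figure D2:**
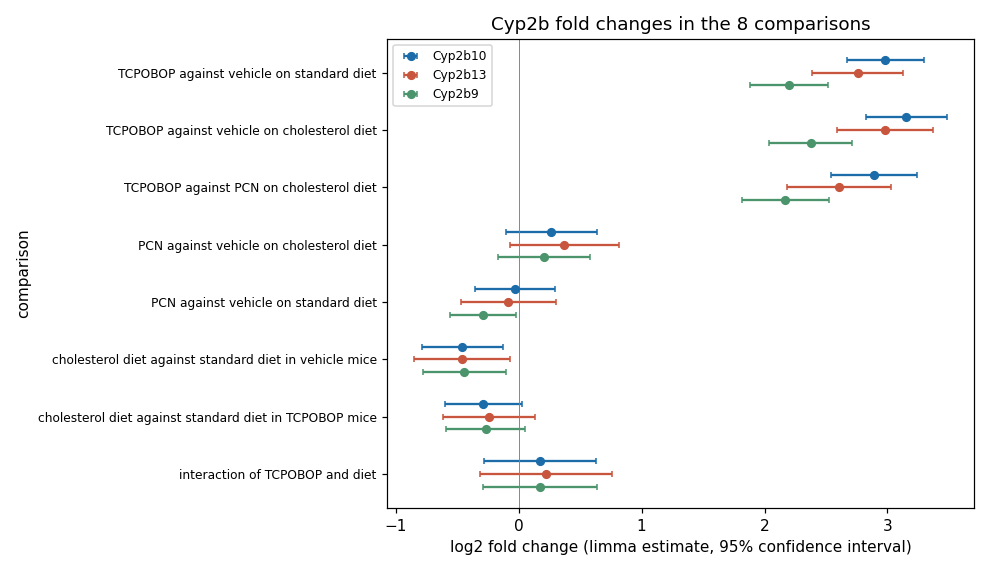
Log2 fold change of each Cyp2b gene (horizontal axis) in the 8 comparisons (vertical axis), with bars for the 95% confidence interval of the limma estimate. The 3 comparisons of TCPOBOP with vehicle or PCN lie between 2.17 and 3.15, and the other 5 between -0.46 and 0.37.

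The scanner intensities showed the rise without the reference channel. The background-subtracted mean intensity of the liver channel for Cyp2b10 was 2455 to 4821 in vehicle mice on standard diet and 19582 to 34961 in TCPOBOP mice. On cholesterol diet it was 1672 to 5936 with vehicle, 2183 to 4723 with PCN and 16446 to 30023 with TCPOBOP. The highest median pixel value of any member spot was 46230 in the liver channel and 26966 in the reference channel, below the saturation level of 65535. The 3 spots of a member lay near each other, with a root mean square SD on pool 1 of 0.06 for Cyp2b10 and Cyp2b9 and 0.11 for Cyp2b13 on the log2 scale, against within-group SDs between mice of 0.25, 0.26 and 0.30.

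Spot positions are stored in micrometres on 9 pool 1 arrays and in millimetres on 20, and each treatment group holds both kinds. On standard diet Cyp2b10 rose by 3.17 within the micrometre arrays (2 mice per group) and by 2.89 within the millimetre arrays (4 per group), Cyp2b13 by 2.94 and 2.67, and Cyp2b9 by 2.40 and 2.10. On cholesterol diet, where the micrometre arrays hold 1 vehicle mouse, the values were 2.52 and 3.33 for Cyp2b10, 2.44 and 3.09 for Cyp2b13, and 1.66 and 2.57 for Cyp2b9. Every one of these passed the threshold of 0.05 after adjustment.

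The cDNA probes of such close paralogs may bind each other's messages, and whether they do was not tested. The sizes of the responses were compared within arrays. On each array the log2 ratio of Cyp2b9 was subtracted from that of Cyp2b10. On standard diet this difference was -0.64 ± 0.12 (SD, n = 6) in vehicle mice. In TCPOBOP mice it was 0.14 ± 0.07 (SD, n = 6). The Cyp2b10 signal thus rose by 0.78 more (SE 0.06, exact two-sided permutation p = 0.00216, adjusted p = 0.00648 over 12 tests). The unadjusted p is the smallest that these group sizes allow. Whether the messages or only the probes differ in response was not tested. The 2 groups of differences did not overlap. On cholesterol diet the extra rise of the Cyp2b10 signal was again 0.78 (SE 0.05, exact two-sided permutation p = 0.00216, adjusted p = 0.00648).

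The signal of Cyp2b13 also rose more than that of Cyp2b9. The excess was 0.56 on standard diet (SE 0.09, exact permutation p = 0.00216, adjusted p = 0.00648). On cholesterol diet it was 0.60 (SE 0.12, exact permutation p = 0.00433, adjusted p = 0.0104). Cyp2b10 exceeded Cyp2b13 by 0.23 on standard diet (SE 0.04, exact permutation p = 0.00216, adjusted p = 0.00648). On cholesterol diet the corresponding 0.18 (SE 0.09, exact permutation p = 0.106, adjusted p = 0.182) did not pass. There, TCPOBOP replicate 1 had a Cyp2b13 value of 1.61, with an SD of 0.43 between its 3 spots, against 0.98 to 1.23 in the other 5 mice. Without it the difference was 0.26 with an adjusted p of 0.0159 in the same exact permutation test. This mouse was singled out after seeing its value, and of 11 mice left out in turn only its omission gave a call. None of the 6 differences between members passed for PCN, the nearest being Cyp2b13 minus Cyp2b9 on cholesterol diet at 0.17 (SE 0.07, exact permutation p = 0.0281, adjusted p = 0.0562).

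**Figure D3:**
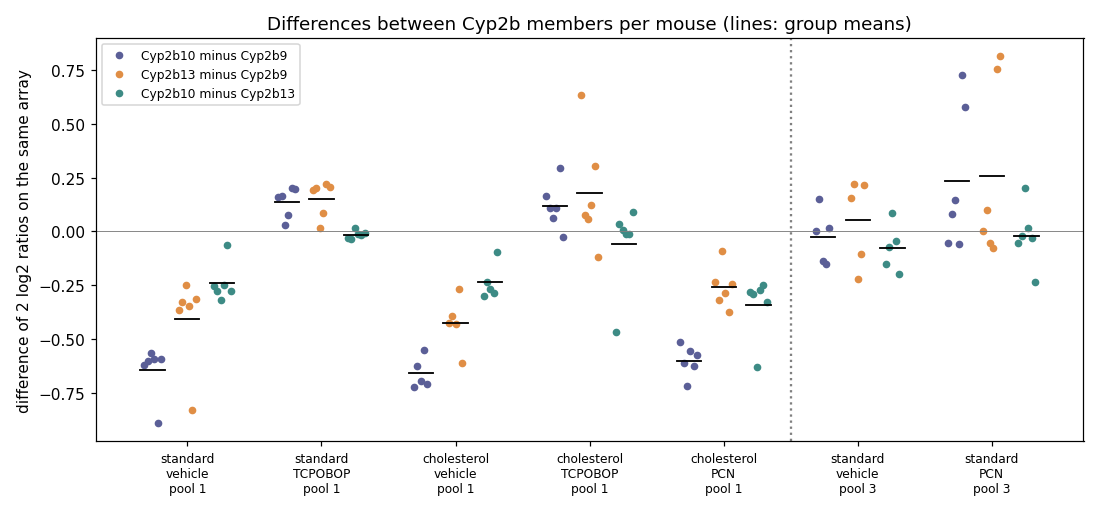
Difference between the log2 ratios of 2 Cyp2b genes on the same array, for each mouse (points) in the 7 groups, with lines at the group means. Cyp2b10 minus Cyp2b9 moves from -0.64 with vehicle to 0.14 with TCPOBOP on standard diet, while the PCN group on cholesterol diet sits near its vehicle group.

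PCN was not followed by a rise of this kind. On cholesterol diet the PCN mice ran from -1.88 to -1.53 for Cyp2b10 (median -1.77), from -1.60 to -1.20 for Cyp2b13 (median -1.44) and from -1.37 to -0.96 for Cyp2b9 (median -1.14). These values fell inside the spread of the 5 vehicle mice for all 3 messages. The log2 fold changes against vehicle were 0.27 for Cyp2b10 (95% confidence interval -0.10 to 0.63, adjusted p = 0.512 from limma), 0.37 for Cyp2b13 (-0.07 to 0.81, adjusted p = 0.473) and 0.21 for Cyp2b9 (-0.17 to 0.58, adjusted p = 0.673). In this comparison 1.08% of the 277 genes were called, and the groups did not overlap for 1.44%. Without vehicle replicate 6 the values were 0.05, 0.12 and 0.0021, and within the micrometre arrays, with 1 vehicle mouse, they were -0.41, -0.42 and -0.57, against 0.46, 0.61 and 0.43 within the millimetre arrays. No call was made in any of these.

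Against PCN, TCPOBOP on the same diet gave a log2 fold change of 2.89 for Cyp2b10 (SE 0.17, limma adjusted p = 2.2e-09), 2.61 for Cyp2b13 (SE 0.20, adjusted p = 6.24e-08) and 2.17 for Cyp2b9 (SE 0.17, adjusted p = 6.24e-08). All 3 of 3 were higher with TCPOBOP, against 15.5% of all genes called higher, and no PCN mouse reached any TCPOBOP mouse, which held for 10.8% of all genes.

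On standard diet, against reference pool 3, the vehicle mice had Cyp2b10 log2 ratios of -0.10, 0.21, 0.21, -0.28 and 0.19 (replicates 2 to 6), and the PCN mice ran from -0.27 to 0.56 with a median of -0.02. Cyp2b13 was at 0.05, 0.28, 0.12, -0.23 and 0.39 with vehicle and between -0.47 and 0.59 with PCN. Cyp2b9 was at -0.10, 0.06, 0.34, -0.13 and 0.18 with vehicle and between -0.51 and 0.06 with PCN. The groups overlapped for all 3. The log2 fold changes were -0.03 for Cyp2b10 (95% confidence interval -0.35 to 0.29, adjusted p = 0.986 from limma), -0.09 for Cyp2b13 (-0.47 to 0.30, adjusted p = 0.903) and -0.29 for Cyp2b9 (-0.56 to -0.02, adjusted p = 0.338), in a comparison that called 2.53% of all genes and had no overlap for 3.61%. These arrays were dimmer than those of pool 1, and the 3 spots of a member differed more, with a root mean square SD of 0.24 for Cyp2b10, 0.25 for Cyp2b13 and 0.14 for Cyp2b9. Values on the 2 pools are relative to different mixes and were not compared.

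Other P450s did rise in the same PCN mice, where 1.44% of all genes were called higher on standard and 0.722% on cholesterol diet. Cyp3a41a, Cyp3a11 and Cyp3a25, drug-metabolizing P450s of the PXR-responsive family whose probes may likewise bind each other's messages, rose on standard diet by log2 fold changes of 1.11 (adjusted p = 0.00705 from limma), 0.99 (adjusted p = 0.0283) and 0.89 (adjusted p = 0.0401), and Cyp3a13 was at 0.50 (adjusted p = 0.267). On cholesterol diet Cyp3a25 rose by 0.96 (adjusted p = 0.00081), with Cyp3a41a at 0.94 (adjusted p = 0.119), Cyp3a11 at 0.92 (adjusted p = 0.104) and Cyp3a13 at 0.59 (adjusted p = 0.104). With TCPOBOP all 4 Cyp3a genes rose on both diets, by 0.91 to 1.44 on standard and by 1.39 to 1.80 on cholesterol diet, less than any Cyp2b message. Slco1a4, an organic anion uptake transporter of the liver, rose in all 4 comparisons of a compound with vehicle, by 0.94 and 1.54 with TCPOBOP on standard and cholesterol diet and by 0.62 and 0.95 with PCN.

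**Figure D4:**
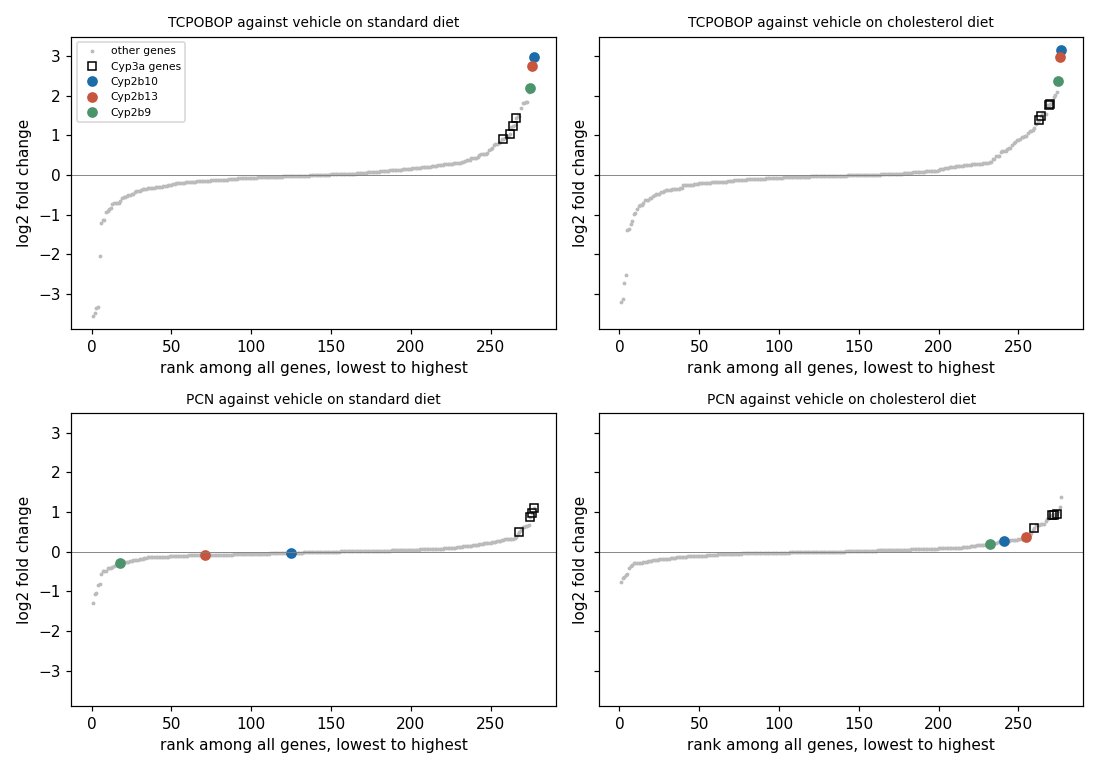
Log2 fold change of each of the 277 genes (vertical axis) against its rank from lowest to highest (horizontal axis) for TCPOBOP (upper row) and PCN (lower row) on standard (left) and cholesterol diet (right), with the Cyp2b genes in colour and the Cyp3a genes as squares. The Cyp2b genes hold the 3 highest ranks with TCPOBOP and lie between -0.29 and 0.37 with PCN, where the Cyp3a genes lie at 0.50 to 1.11.

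The effect of diet without a compound was compared in vehicle mice. The paper names the cholesterol diet as a Western diet, a product apart from the standard chow, and its supplement calls it high fat. Cholesterol and other differences between the diets cannot be told apart here. Against the vehicle mice on standard diet given above, the mean log2 ratio was lower on cholesterol diet by 0.46 for Cyp2b10, 0.44 for Cyp2b9 and 0.46 for Cyp2b13, and none of the 3 passed the threshold (log2 fold changes -0.46, -0.44 and -0.46, with adjusted p of 0.0525, 0.0669 and 0.101 from limma, where 14.4% of all genes were called and 9.75% called lower). The groups overlapped, since replicate 1 on cholesterol diet lay among the standard diet mice or above them. The other 4 vehicle mice on cholesterol diet lay below every standard diet mouse for all 3 messages.

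Single mice decided this comparison. Without cholesterol vehicle replicate 1 the log2 fold changes were -0.61, -0.61 and -0.63 for Cyp2b10, Cyp2b9 and Cyp2b13, and all 3 passed (adjusted p = 0.00461, 0.00422 and 0.0154 from limma). Without cholesterol vehicle replicate 6 they shrank to -0.24, -0.24 and -0.21 (adjusted p = 0.128, 0.216 and 0.314). With 1 mouse left out at a time, 32 to 44 of all 277 genes were called in this comparison, against 40 with every mouse. Replicate 1 is the only vehicle mouse on cholesterol diet among the micrometre arrays. Within these arrays the values, which rest on that 1 mouse, were 0.30, 0.41 and 0.33. Within the millimetre arrays they were -0.69, -0.71 and -0.70 and passed (adjusted p = 0.0189, 0.0126 and 0.041 from limma). The share of all genes called within the millimetre arrays is not given here. With the position unit as a block they were -0.45, -0.44 and -0.44 and did not pass. The deposited log2 ratios, which include replicate 2, gave -0.28, -0.29 and -0.27 with no call.

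**Figure D5:**
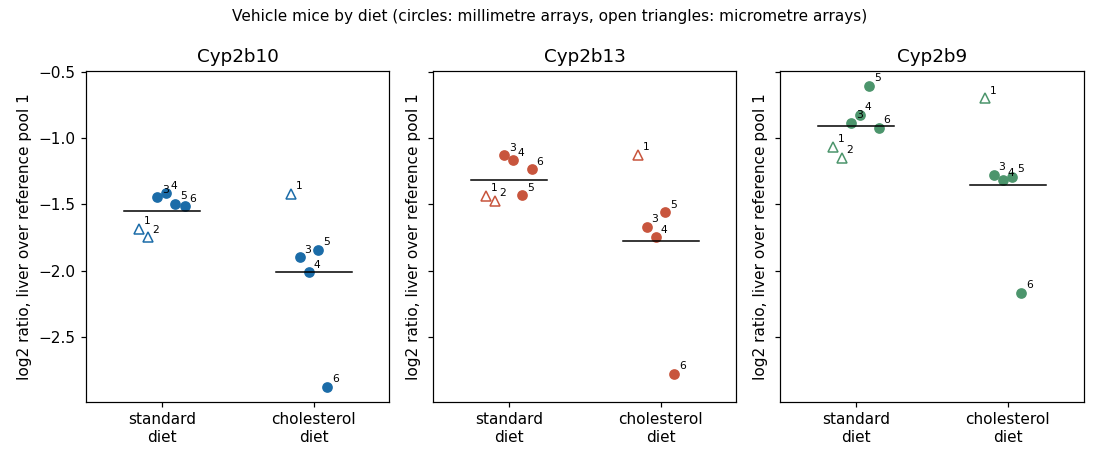
Log2 ratio to reference pool 1 (vertical axis) of each vehicle mouse on the 2 diets (horizontal axis) for each Cyp2b gene, with replicate numbers, lines at the group means, and open triangles for the arrays whose positions are in micrometres. Replicate 1 on cholesterol diet is the highest of its group and replicate 6 the lowest in all 3 panels.

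In TCPOBOP mice the cholesterol diet gave log2 fold changes of -0.29 for Cyp2b10 (95% confidence interval -0.60 to 0.03, adjusted p = 0.321 from limma), -0.24 for Cyp2b13 (-0.61 to 0.13, adjusted p = 0.533) and -0.27 for Cyp2b9 (-0.59 to 0.05, adjusted p = 0.358), and 4.33% of all genes were called. The difference of the TCPOBOP response between the diets, tested as an interaction, was 0.17 for Cyp2b10 (-0.28 to 0.63, adjusted p = 0.862), 0.22 for Cyp2b13 (-0.32 to 0.76, adjusted p = 0.852) and 0.17 for Cyp2b9 (-0.29 to 0.64, adjusted p = 0.862). No gene on the array passed the interaction test in limma, while 35 (12.6%) had an unadjusted p under 0.05. Without cholesterol vehicle replicate 6 the interaction estimates were -0.04, -0.03 and -0.03.

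Ordered by the mean log2 ratio on pool 1, the groups stood the same way for all 3 messages: TCPOBOP on standard diet (1.43 ± 0.15 for Cyp2b10, SD, n = 6), TCPOBOP on cholesterol diet (1.14 ± 0.11, n = 6), vehicle on standard diet (-1.55 ± 0.13, n = 6), PCN on cholesterol diet (-1.74 ± 0.13, n = 6) and vehicle on cholesterol diet (-2.01 ± 0.53, n = 5). The step between the TCPOBOP groups and the other 3 was the only one between neighbours whose mice did not overlap for any of the messages. The step from vehicle on standard diet to PCN on cholesterol diet mixes diet and compound and was not tested. The SD of the vehicle mice on cholesterol diet was the highest of the 5 groups for each message, at 0.53 for Cyp2b10, 0.52 for Cyp2b9 and 0.61 for Cyp2b13.

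The 3 messages also varied together from mouse to mouse once the group means were removed. Over the 29 pool 1 arrays the deviations of Cyp2b10 and Cyp2b9 had a Pearson's r of 0.93 (permutation within groups p = 1e-05, the smallest 100000 shuffles can give, adjusted p = 3e-05 over 3 pairs) and a Spearman's rho of 0.86 (permutation p = 1e-05, adjusted p = 3e-05). For Cyp2b10 and Cyp2b13 r was 0.91 (permutation p = 5e-05, adjusted p = 7.5e-05) and rho 0.78 (p = 4e-05, adjusted p = 6e-05), and for Cyp2b13 and Cyp2b9 r was 0.82 (permutation p = 0.00201, adjusted p = 0.00201) and rho 0.64 (p = 0.00185, adjusted p = 0.00185). The 2 mice farthest from the median were cholesterol vehicle replicates 6 and 1 for every pair. Without them r fell to 0.78 (permutation p = 5e-05), 0.69 (p = 0.00039) and 0.42 (p = 0.048) over 27 arrays, the largest fall being that of the last pair, whose relation rested in good part on those mice. Within the 9 micrometre arrays r was 0.99, 0.87 and 0.84, and within the 20 millimetre arrays 0.91, 0.93 and 0.82. Values on an array share its hybridization and normalization, and probes of these close paralogs may bind each other's messages, which was not tested. Shared probe signal and messages that vary together cannot be told apart here. Over the 11 pool 3 arrays r was 0.42, 0.92 and 0.26, given without a test.

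Over the same 29 arrays, with the groups kept in, the genes most like Cyp2b10 were Cyp2b13 (r = 0.996), Cyp2b9 (r = 0.996), Alas1 (r = 0.946), Abcc3 (r = 0.945), an export pump of conjugates, and Cyp2a4 (r = 0.942), a steroid hydroxylase. The least like it was Scarb1, which takes up HDL cholesterol (r = -0.947). The arrays fall into TCPOBOP and other mice, so these values mostly describe the response to TCPOBOP and carry no test. The log2 fold changes with TCPOBOP on standard and cholesterol diet were 1.70 and 2.08 for Alas1 and 1.26 and 2.02 for Abcc3. They were 1.83 and 1.55 for Cyp2a4 and -0.83 and -0.77 for Scarb1. These genes were picked by likeness over the same arrays, so their fold changes are a description only.

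Of 12 listed receptors and partners of the xenobiotic response, 11 are on the array. On standard diet TCPOBOP raised 2 and lowered 2, where 22% of all genes were called higher and 21.3% lower, and 7 did not pass (median log2 fold change -0.07, against -0.01 over all genes), and on cholesterol diet, with 23.1% and 14.4% of all genes, it raised 1 and lowered 1 (median -0.12, against -0.02). Nr1i3, which encodes CAR, fell by 0.71 on the log2 scale on standard diet (SE 0.15, limma adjusted p = 0.000462) and was at -0.26 on cholesterol diet (adjusted p = 0.185). The diet lowered Nr1i3 in vehicle mice, with a log2 fold change of -0.60 (SE 0.15, adjusted p = 0.0082). Nr1i2, which encodes PXR, rose by 0.32 and 0.33 (adjusted p = 0.00049 and 0.000774), and Cebpa, a liver-enriched transcription factor, changed by -1.21 and -0.97 (adjusted p = 4.8e-08 and 2.96e-06).

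Among 16 other P450s of families 1 to 3, TCPOBOP raised 8 and lowered 2 on standard diet (median 0.24), and raised 9 and lowered 1 on cholesterol diet (median 0.34), beside the same shares of all genes. Cyp1a1 is among the raised on both diets although it was above background in only 2 and 3 of the 6 TCPOBOP mice and in no vehicle mouse. Cyp2a4 led the first count and Cyp3a13 (1.80) the second, with Cyp1a2, which oxidizes aromatic amines and caffeine, at 1.81 and 1.77. Cyp2e1, the ethanol-inducible P450, fell by 0.69 on the log2 scale on standard diet (adjusted p = 1.51e-05) and was at -0.11 on cholesterol diet (adjusted p = 0.483). PCN raised 3 of the 16 on standard diet and 1 on cholesterol diet, all Cyp3a genes. In these PCN comparisons 1.44% and 0.722% of all genes were called higher. Of 11 listed transporters of xenobiotics 9 are on the array, and the same 4 rose with TCPOBOP on both diets, where 22% and 23.1% of all genes were called higher: Abcb1a, Abcc2, Abcc3 and Slco1a4. Of the other 5, Abcc1 and Slco2b1 fell on standard diet and Slco1a1 on cholesterol diet, where 21.3% and 14.4% of all genes were called lower. Slco1a1 was above background in only 3 of 6 TCPOBOP and 4 of 5 vehicle mice there. Of the list of P450 reductase and heme supply, Alas1 and Hmox1 are on the array, and Hmox1, which degrades heme, was at -0.20 on both diets (adjusted p = 0.175 and 0.2).

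For the series as a whole, the median intensity of the liver channel over mouse spots was 158 to 297 on the pool 1 arrays, where 62.1% to 80.1% of genes lay above background, and 23.6 to 137 on the pool 3 arrays, with 52.3% to 70% above background. The raw log2 ratio of the calibration spikes, RNAs added to both channels, was -0.55 to 0.39 on pool 1 and -2.55 to 0.02 on pool 3. Of 406 pairs of pool 1 arrays 140 had a correlation under -0.3, the lowest being -0.67, all between a TCPOBOP array and another. Of 13 hepatocyte markers 12 are on the array, and 11 were above background on all 40 arrays. With TCPOBOP 7 of these 12 fell and 1 rose on standard diet (median -0.35), where 21.3% of all genes were called lower and 22% higher. On cholesterol diet 4 fell and 1 rose (median -0.23), where 14.4% of all genes were called lower and 23.1% higher. The 12 markers include Igf1 (-1.13 and -1.35), Cyp8b1 (-2.04, and -0.52 with no call) and the rising Cyp1a2. Their summed intensity overlapped, at 132200 to 170300 in vehicle and 109500 to 202400 in TCPOBOP mice on standard diet, and their part in the Cyp2b result was not tested. Msr1, the only one of 8 macrophage markers measured, was at background on every array. Of 4 intestinal markers 2 are on the array. Both rose with TCPOBOP on both diets, where 22% and 23.1% of all genes were called higher. These were Apoa4 (2.11 and 0.98), which liver also makes, and Slc10a2. Slc10a2 was above background in all TCPOBOP mice, in 0 of 6 vehicle mice on standard diet and in 2 of 5 on cholesterol diet. The summed intensity of these markers was 184 to 383 in vehicle and 515 to 2271 in TCPOBOP mice on standard diet, and overlapped on cholesterol diet (362 to 950 and 681 to 1288). Their part was not tested either. Adipoq, Lep and Retn, the measured adipocyte markers (3 of 6), summed to 145 to 240 and 134 to 414 on standard diet, where Adipoq was called lower (-0.12, limma adjusted p = 0.0391). Adipoq was above background on 32 of 40 arrays, Retn on 5 and Lep on 0.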

How the data were processed

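The deposited scanner files give for every spot a mean intensity per channel and, separately, its local background, and the authors had neither subtracted nor normalized these values. The value table holds log2 ratios that the authors deposited after normalizing and averaging them, with details not given in the sources used here, and served as an alternative. Their Pearson's r with the ratios made here was 0.917 to 0.996 on pool 1 and 0.689 to 0.978 on pool 3.

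Of 42 labelled samples, 40 arrays were used. Scanner values of cholesterol vehicle replicate 2 were not used here. Vehicle replicates 1 and 3 of the pool 3 set have the same scanner values, which were counted once, as replicate 3, whose deposited column they match (r = 0.929, against -0.0631 for replicate 1).

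Intensities were background-corrected by normexp with an offset of 50 and loess-normalized on the mouse spots within an array, and the spots of a probe were averaged. The 284 mouse probes stand for 277 genes, the brightest probe being used where a gene has several. A gene counted as above background where most of its spots passed the background median plus 2 SDs. For tests between groups limma 3.58.1 was run in R 4.3.3, with Benjamini-Hochberg adjustment over the 277 genes and a threshold of 0.05. One model held the 4 vehicle and TCPOBOP groups of pool 1 (TCPOBOP, diet, interaction), another the 3 groups on cholesterol diet (PCN, and TCPOBOP against it), and another the 2 groups of pool 3. Comparisons on cholesterol diet share their vehicle mice. Differences between members were tested by exact permutation over mice. The number of arrays limits precision. Alternatives covered background correction, normalization, spot summary, dim probes, test, fit, blocks, batches and single mice left out.

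The genes named are the 3 members, the 5 genes most like Cyp2b10 over the pool 1 arrays and the least like, and members of fixed lists as examples; no gene measured here has a name starting with Ugt, Sult or Gst. The members and lists were chosen with earlier results of these data known.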

Additional observations from a re-analysis of the deposited data

Results flagged for a closer look

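In TCPOBOP mice on cholesterol diet, replicate 6 had a Cyp2b9 log2 ratio of 1.33, while the other 5 mice lay between 0.92 and 1.06, a gap wide enough to pass Dixon's 95% limit for a group of 6. It was 1 of 21 sets of values (3 genes in 7 groups) that did, and chance flags about 1 in 20. The Cyp2b10 value of this mouse, 1.30, was also the highest of its group, and its Cyp2b13 value of 1.21 was not.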

How the results depend on the processing

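The rise of Cyp2b10, Cyp2b13 and Cyp2b9 with TCPOBOP, on either diet and against PCN, kept its direction and its call under every alternative for background correction, normalization, spot summary, dim probes, test, fit, block and batch, and without any 1 mouse. Without 1 mouse the log2 fold changes of Cyp2b10 lay at 2.93 to 3.01 on standard diet and 2.94 to 3.30 on cholesterol diet. Of the members' fold changes in all comparisons under other settings, 13 reversed, 7 gained a call and 238 did neither. Without 1 mouse, 9 reversed, 4 gained a call and 296 did neither. The cause of the changes below was not tested.

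For the diet in vehicle mice, the deposited ratios, which include the sixth cholesterol vehicle mouse, gave the lower values of -0.28, -0.27 and -0.29 for Cyp2b10, Cyp2b13 and Cyp2b9 (limma adjusted p = 0.405, 0.471 and 0.4), and the plain t-test also made no call (adjusted p = 0.211, 0.277 and 0.239). Cyp2b10 gained a call at -0.46 with all 5 pool 1 groups in 1 fit, with dim probes left out and with no background correction (-0.46), and Cyp2b9 at -0.44 with all 5 groups. Within the micrometre arrays Cyp2b10, Cyp2b13 and Cyp2b9 turned to 0.30, 0.33 and 0.41, and within the millimetre arrays they were called at -0.69, -0.70 and -0.71. Without 1 mouse they ran from -0.61 to -0.24, -0.63 to -0.21 and -0.61 to -0.24. Without standard vehicle replicate 2 Cyp2b10 passed at -0.50. The interaction turned to -0.65, -0.50 and -0.74 within the micrometre arrays, and ran without 1 mouse from -0.044 to 0.32, -0.029 to 0.38 and -0.029 to 0.34. PCN on cholesterol diet turned to -0.41, -0.42 and -0.57 within the micrometre arrays.

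PCN on standard diet turned for Cyp2b10 to 0.097 with the deposited log2 ratios, 0.019 with the median over spots and 0.099 within the arrays of high spike balance, a split chosen after seeing the data, where Cyp2b13 turned to 0.089. The deposited Cyp2b10 ratios lack vehicle replicate 2 and include replicate 1 at -0.352, against 0.485 to 1.001 in replicates 3 to 6. Without 1 mouse the estimates of this comparison ran from -0.14 to 0.028 for Cyp2b10 and from -0.20 to 0.017 for Cyp2b13. The difference of Cyp2b10 and Cyp2b13 in response to TCPOBOP on cholesterol diet ran from 0.15 to 0.26, and that of Cyp2b13 and Cyp2b9 in response to PCN there from 0.12 to 0.21, with a call without PCN replicate 5 or vehicle replicate 5.

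Counts of genes past the threshold moved more. With the deposited ratios, TCPOBOP changed 74 genes on standard diet (120 in the report's setting), 68 on cholesterol diet (104) and 49 against PCN (76), and PCN 2 on standard diet (7). Within the micrometre arrays the first 3 counts were 33, 25 and 22, and those of the diet in vehicle mice (40), the diet in TCPOBOP mice (12) and PCN on cholesterol diet (3) were 0. Within the millimetre arrays the diet in TCPOBOP mice gave 3, the interaction 1 and PCN on cholesterol diet 13 (8 with all 5 groups in 1 fit). Median centring gave 3 for the diet in TCPOBOP mice and 0 for PCN on standard diet, the plain t-test of the methods 2, 1 and 2 for the diet in TCPOBOP mice and PCN on cholesterol and standard diet, and leaving out dim probes 3 for the interaction (0). PCN on standard diet gave 0 and 1 within the arrays of high and low spike balance. Without 1 mouse the counts ran from 109 to 118 and 85 to 113 for TCPOBOP on standard and cholesterol diet, 59 to 80 against PCN, 32 to 44 for the diet in vehicle mice, 7 to 23 for the diet in TCPOBOP mice, 0 to 6 for the interaction, 2 to 6 for PCN on cholesterol diet and 2 to 7 on standard diet.

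The replicate numbers gave no clear sign of pairing: over the pairs of groups, at most 3 of 6 same-numbered pairs had deviations correlated above 0.1. The highest such correlation was 0.67, for TCPOBOP against PCN on cholesterol diet. These correlations cannot exclude a pairing, and the paper's methods name none. With the replicate number as a block, the Cyp2b10 log2 fold change was 2.98 with TCPOBOP on standard diet and -0.48 for the diet in vehicle mice. The block changed no call of a member, and took the count of PCN on standard diet from 7 to 1.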

Other observations

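The samples without scanner values of their own have deposited log2 ratios, on the scale of the authors' normalization. Cholesterol vehicle replicate 2 was at -1.70 for Cyp2b10, -1.19 for Cyp2b9 and -1.51 for Cyp2b13. Vehicle replicate 1 of the pool 3 set was at -0.35, -0.42 and -0.31.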
